A study of Drosophila melanogaster with 12 samples.

Results

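Ultrabithorax (Ubx) peaks that were called in a single haltere disc library were examined. The members are the peaks of any of the 3 haltere Ubx ChIP peak lists, on arms 2L, 2R, 3L, 3R, 4 or X, that share no base with a peak of either other list, leaving out the stretch of tandem histone genes on 2L. There were 3826 such peaks among 9089 deposited ones, of which replicate 1 gave 1468, replicate 2 gave 605 and replicate 3 gave 1753. The members were thus chosen from the peak calls themselves. Their overlap and peak strength are given as a description, and the library stays a label throughout, since peaks of 1 library are not replicates of each other.

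The libraries come from haltere imaginal discs of Canton S animals, a wild-type strain, taken at the wandering stage of the third larval instar. Chromatin was precipitated with a polyclonal antibody against the N-terminal part of Ubx. The 3 biological replicates were independent according to the series design text. No treatment or mutant enters these samples, and the number of discs pooled per library is not given in the sources used here. Wing disc samples and input samples were not analysed here. No file used here gives read counts, so the depth of each library is unknown. The part of depth in the numbers of single-library peaks was not tested.

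Ubx is the Hox transcription factor that sets the haltere, the balancing organ of the third thoracic segment, apart from the wing. It binds short homeodomain core sequences, often beside its cofactors Extradenticle (exd) and Homothorax (hth), and acts on many genes of the wing patterning network at enhancers that may lie far from the transcription start. In ChIP-seq a peak is a stretch with more reads than the local background, and a site enriched close to the calling threshold can pass it in one replicate and miss it in another.

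Single-library peaks made up 51.5% of the 2849 analysed peaks of replicate 1 (95% Wilson interval 49.7 to 53.4%), 27.4% of the 2208 of replicate 2 (25.6 to 29.3%) and 47.7% of the 3676 of replicate 3 (46.1 to 49.3%). The intervals cover only the counting error over peaks. Replicate 2, the shortest list, therefore held the smallest share, and the longest list did not hold the largest. Single-library peaks were narrow, with median widths of 158, 169 and 179 bp in replicates 1, 2 and 3. Peaks of the same lists called in all 3 libraries were wider, with medians of 256.5, 281.5 and 367 bp. Those called in 2 libraries lay between, at 185, 200 and 235.5 bp.

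The authors' fold enrichment, a linear ratio over background at the summit, was low in most single-library peaks but not in all. The medians for replicates 1, 2 and 3 were 4.17, 3.55 and 3.92, beside 4.95, 5.07 and 6.63 for peaks found in all 3 libraries. Peaks found in 2 libraries lay between, with medians of 4.28, 4.04 and 4.58, close to the single-library value in replicate 1. The highest single-library folds were 11.9, 6.12 and 10.9 in the same order. Replicate 1 stood apart in this respect: 60 of its single-library peaks lay in the top decile of its own list, where they made up 20.9% of 287 peaks. In replicate 3 there were 4 such peaks among 368, and in replicate 2 there were 0 among 221. Measured against the median fold of the shared peaks of the same list, 28.1% of the single-library peaks lay above it in replicate 1, 8.93% in replicate 2 and 9.47% in replicate 3.

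**Figure D1:**
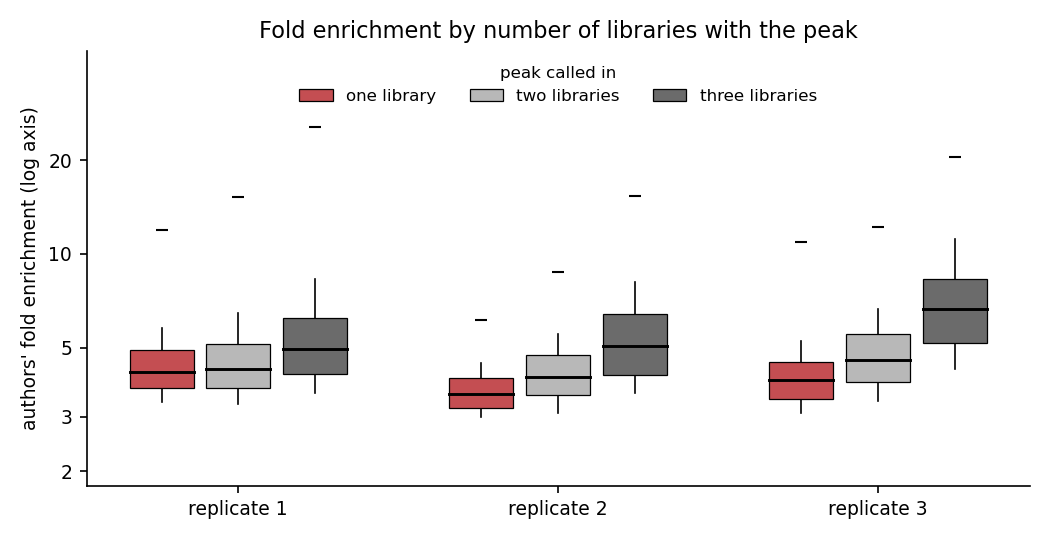
Authors' fold enrichment (log axis) of haltere Ubx peaks in each replicate, split by the number of libraries in which the peak was called. Boxes span the quartiles with the median as a line, vertical lines run from the 10th to the 90th percentile, and dashes mark the highest peak; the single-library boxes lie closest to the others in replicate 1.

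The rule turns on 1 shared base, and few peaks lay near that edge. In replicate 1 the single-library peak closest to another list lay on X from 8091389 to 8091545, 2 bp from the nearest peak, with a fold of 5.07. In replicate 2 it lay on 3R from 6812856 to 6813088, at 1 bp and with a fold of 3.29. In replicate 3 it lay on 3R from 17193059 to 17193225, at 2 bp and with a fold of 3.22. On the other side of the rule, the peaks with the fewest shared bases shared 1 base: on 2R from 7092481 to 7092666 in replicate 1 (fold 5.99), and on 3L from 3265334 to 3265507 in replicate 2 (fold 3.90) and from 3265507 to 3265664 in replicate 3 (fold 3.71). The last pair are neighbours that meet at a single base. A gap of at most 25 bp separated 6, 2 and 11 single-library peaks of replicates 1, 2 and 3 from another list, while 16, 7 and 16 peaks shared at most 25 bases.

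Most single-library peaks had no peak of another list close by. The median gaps to the nearest peak of either other library were 9061.5, 7604 and 5062 bp in replicates 1, 2 and 3. The gap was at most 500 bp for 136 peaks of replicate 1 (9.26%), 74 of replicate 2 (12.2%) and 249 of replicate 3 (14.2%). At 1 kb the shares were 15.9, 20 and 24.5%. Counting only the single-library peaks of the other lists, 7.36% of replicate 1, 11.4% of replicate 2 and 7.36% of replicate 3 had one within 1 kb. Replicate 3 also placed its single-library peaks beside each other: 241 of them (13.7%) had another single-library peak of the same list within 1 kb, against 67 (4.56%) in replicate 1 and 10 (1.65%) in replicate 2.

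The distance to the authors' consensus regions was measured next. These regions are the stretches covered by at least 2 lists, so no single-library peak can touch one, and the distances are a description only. Outside the histone genes 2027 consensus regions lay on the arms. The gap to the nearest region had a median of 21468 bp in replicate 1 (quartiles 4958 and 75425 bp), 30488 bp in replicate 2 (6140 and 91136 bp) and 10873 bp in replicate 3 (1771 and 47815 bp). Shared peaks, measured to the nearest region they do not touch, had medians of 2234, 2538 and 2815 bp. Thus 8.99% of the single-library peaks of replicate 1 (132), 10.2% of replicate 2 (62) and 18.2% of replicate 3 (319) lay within 1 kb of a consensus region, against 37.3, 35.9 and 34.7% of the shared peaks. More than 100 kb from any region lay 282 single-library peaks of replicate 1 (19.2%), 142 of replicate 2 (23.5%) and 234 of replicate 3 (13.3%). For shared peaks these shares were 3.91, 4.37 and 4.47%.

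**Figure D2:**
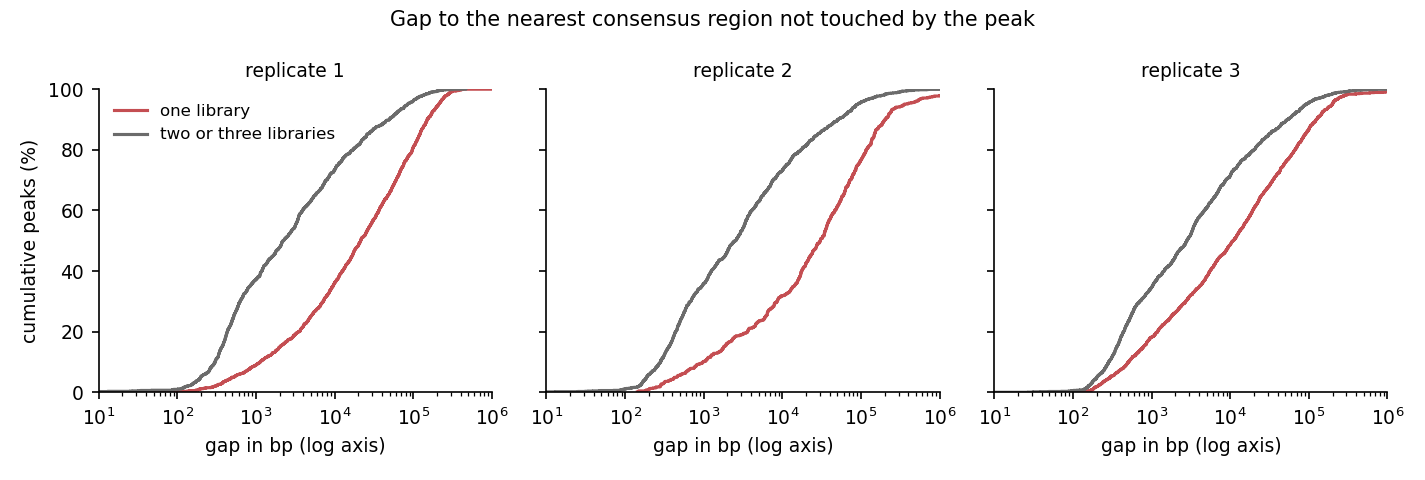
Cumulative share of peaks (percent) by the gap in bp (log axis) to the nearest consensus region that the peak does not touch, per replicate, for peaks called in 1 library and peaks called in 2 or 3. The single-library curve lies to the right in each replicate, least so in replicate 3.

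Where a consensus region did lie within 1 kb, it was usually one that the same library had also found. This held for 97 of the 132 such peaks in replicate 1 (73.5%), 54 of 62 in replicate 2 (87.1%) and 307 of 319 in replicate 3 (96.2%). Over all consensus regions the libraries were present in 68.8, 79.6 and 96.7%. The nearby region was one found in all 3 libraries in 47.0, 46.8 and 49.8% of cases, beside 45.04% of all 2027 regions. The neighbours of replicate 3 peaks thus held that library at nearly the rate of consensus regions in general.

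Positions relative to genes were not used by the rule and could be tested over the 3 libraries. Single-library peaks lay near gene ends more often than shared peaks of the same list, and less often in the space between genes, in every library. A protein-coding gene began or ended within 1 kb of the peak's midpoint for 293 of 1468 single-library peaks in replicate 1 (19.96%; 17.99 to 22.1%), 116 of 605 in replicate 2 (19.2%; 16.2 to 22.5%) and 420 of 1753 in replicate 3 (23.96%; 22.02 to 26.01%). Of the shared peaks 14.99, 15.1 and 15.5% were so placed. All 3 libraries showed a higher share in single-library peaks, by 5.82 ± 2.29 percentage points (SD, n = 3). A two-sided exact permutation of the signs gave p = 0.25 (adjusted p = 0.5 over 4 tests), the lowest value that a design of 3 libraries can reach. The shared peaks of the 3 lists are largely the same sites, so the 3 differences are not independent.

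At 1 kb the order ran through the intermediate class in each library. Peaks found in 2 libraries lay near a gene end in 18.6, 18.1 and 18.0% of cases, and peaks found in all 3 in 13.2, 12.8 and 12.8%. Close to the end itself, 128 single-library peaks of replicate 3 (7.30%) lay within 200 bp of a gene end, against 3.70% of its peaks found in all 3 libraries. In replicates 1 and 2 the shares within 200 bp were 3.88 and 4.13% for single-library peaks and 2.61 and 2.84% for peaks found in all 3. Peaks found in 2 libraries had shares of 4.10, 5.22 and 4.38% in replicates 1, 2 and 3. In replicates 1 and 2 this is above the single-library share, so the order seen at 1 kb did not hold there. The gene table used here has no strand, so a start cannot be told from an end. The difference at 1 kb was 2.40 points when the ends of all gene types counted and 2.52 with the histone genes left in (exact permutation p = 0.5 in both). A p above the lowest possible means that the libraries did not all share a sign, so the excess was not present in every library there. The mean difference was 3.83 when each list was first cut to its strongest 50% and the rule applied again. With a 500 bp window it was 3.06. Compared within quartiles of fold enrichment, it was 6.56 points.

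In the space between protein-coding genes, over 1 kb from any end, lay 24.8% of the single-library peaks of replicate 1, 35.4% of replicate 2 and 30.7% of replicate 3. The shared peaks of these lists lay there in 36.3, 39.4 and 37.2% of cases. The difference was -7.34 ± 3.81 percentage points (SD, n = 3), negative in 3 of 3 libraries (exact sign-flip permutation p = 0.25, adjusted p = 0.5), and -4.50 points when all gene types counted. Deep inside genes, more than 1 kb from any end, the libraries did not move together. The shares were 55.2, 45.5 and 45.4% for single-library peaks against 48.7, 45.5 and 47.2% for shared ones, a difference of 1.52 ± 4.41 points that was positive in 1 of 3 libraries (exact permutation p = 1.0, adjusted p = 1.0). This difference ran from 0.34 points with a 2 kb window at gene ends to 4.20 with 500 bp. Replicate 1 placed 1014 of its single-library peaks (69.1%) inside a protein-coding gene by midpoint, beside 341 (56.4%) in replicate 2 and 1031 (58.8%) in replicate 3. The median length of the genes holding them was 34537 bp, beside 31034 and 31302 bp in replicates 2 and 3.

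The X chromosome separated replicate 1 from the others. Of its single-library peaks 295 (20.1%; 18.1 to 22.2%) lay on X, against 10.9% of its shared peaks. In replicate 2 the numbers were 57 (9.42%; 7.34 to 12.01%) against 10.8%, and in replicate 3 they were 210 (11.98%; 10.5 to 13.6%) against 11.7%. X makes up 17.6% of the arm lengths used and carries 15.8% of the protein-coding genes. Of all replicate 1 peaks on X, 66.3% were called in that library alone, while the share on the other large arms ran from 44.1% on 2L to 51.7% on 3R. The difference over the 3 libraries was 2.71 ± 5.71 points, positive in 2 of 3 (exact sign-flip permutation p = 0.75, adjusted p = 1.0). Without replicate 1 it was -0.15 points, so in the whole lists its sign rests on that library. Within quartiles of fold enrichment it was 6.31 points. With each list first cut to its strongest 50% and the rule applied again, it was 4.45 points. There it was positive in every library (exact sign-flip permutation p = 0.25).

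The X peaks of replicate 1 were not weaker than its other single-library peaks. Their median fold was 4.31, against 4.15 on the autosomes, and 228 of 295 (77.3%) lay inside a protein-coding gene, against 67.0% on the autosomes. Near gene ends they lay in 20.3% of cases, about as often as the autosomal ones (19.9%). In replicates 2 and 3 the X peaks sat near gene ends more often than the autosomal ones, in 29.8 against 18.1% and 32.4 against 22.8%. Of the other arms, 3R held 30.1% of the single-library peaks of replicate 2 and 24.02% of its shared peaks.

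**Figure D3:**
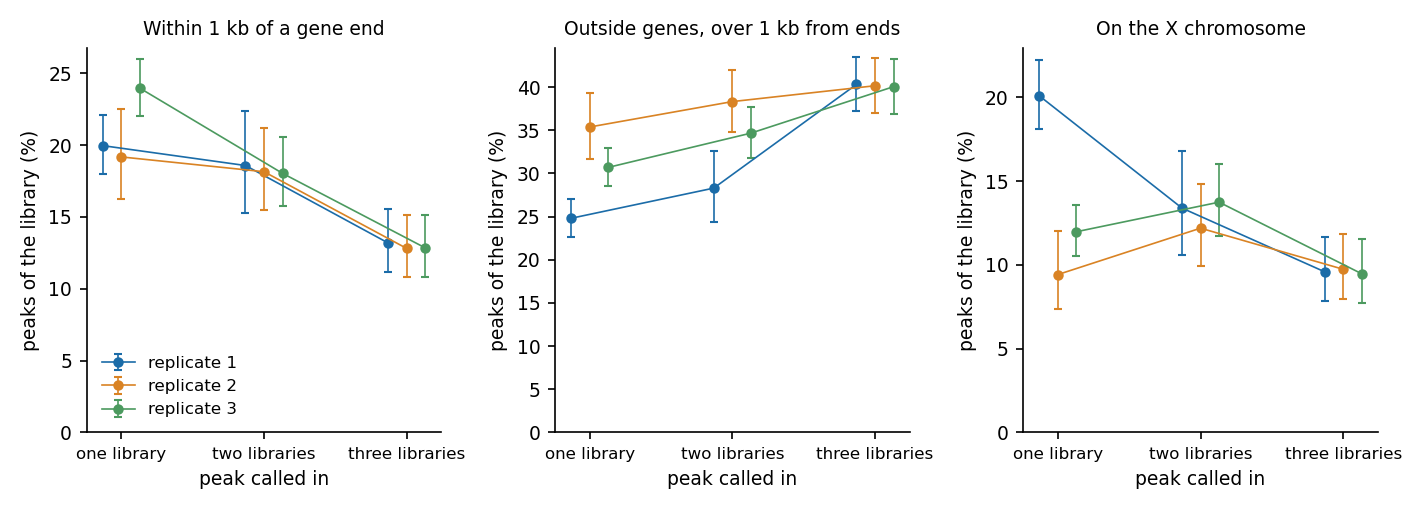
Share of the peaks of each replicate (percent) that lay within 1 kb of a protein-coding gene end, outside such genes and over 1 kb from their ends, or on X, by the number of libraries with the peak. Bars are 95% Wilson intervals over peaks; near gene ends the share falls from left to right in each replicate, while on X only replicate 1 has a high single-library value.

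Genes were assigned to a peak lying in them or within 2 kb. At least 1 single-library peak lay at 2389 of 13922 protein-coding genes, which is 17.2%. By library this was 1159 genes in replicate 1 (8.32%), 508 in replicate 2 (3.65%) and 1275 in replicate 3 (9.16%). A consensus region lay at 955 genes (6.86%). Of the genes with single-library peaks, 1853 (13.3% of all genes) had no consensus region. Single-library peaks of 1 library lay at 1906 genes (13.7% of all genes), those of 2 libraries at 413 (2.97%) and those of all 3 at 70 (0.503%). A consensus region was present at 16.5% of the first class, 41.9% of the second and 70.0% of the third. These classes also differ in gene length, with medians of 4851, 25170 and 45972 bp, and whether length has a part in the order was not tested.

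Counted by peak, 35.4% of the single-library peaks of replicate 1, 22.98% of replicate 2 and 35.6% of replicate 3 lay at a gene that also had a consensus region. A further 44.1, 47.8 and 37.9% lay only at genes without one. The remaining 302, 177 and 465 peaks (20.6, 29.3 and 26.5%) had no protein-coding gene within 2 kb. Longer genes held single-library peaks more often. The share of genes with one was 9.85% among genes up to 5 kb, 27.1% from there to 20 kb, 62.4% from 20 to 50 kb and 81.8% above 50 kb.

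The 10 genes with most single-library peaks were all long, from 64721 to 1965857 bp, and 81.8% of all genes above 50 kb had at least 1 such peak. Myo81F, a myosin gene with an annotated extent of 1965857 bp, had 16, of which 1 came from replicate 1, 6 from replicate 2 and 9 from replicate 3. The Hox cofactor gene hth had 14, with 6, 2 and 6 by replicate, beside 12 consensus regions. The adhesion gene kirre, known from muscle founder cells, had 13, with 9, 1 and 3. Tet, which encodes the fly member of the Tet dioxygenase family, had 12, with 5 in replicate 1 and 7 in replicate 3 and 0 in replicate 2. Of peaks with no other list's peak within 500 bp, Tet had 3. Among the 10 genes with most single-library peaks, replicate 2 gave more than 2 at Myo81F alone.

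Ubx itself had 11 single-library peaks beside its 11 consensus regions, and 10 of them came from replicate 3. They ran from 16669244 on 3R to the replicate 1 peak at 16735961 to 16736109, and the strongest was the replicate 3 peak from 16719790 to 16719997 with a fold of 5.58. The cadherin gene ds, which acts with Fat in growth and planar polarity, had 10, with 2 in replicate 1 and 8 in replicate 3. Among these were 4 replicate 3 peaks in a row on 2L between 647226 and 651735, with folds of 4.38, 4.95, 7.49 and 4.93. The BTB transcription factor gene fru had 11, of which 8 came from replicate 1, with folds from 3.01 to 4.35. Antp, the Hox gene of the second thoracic segment, had 9 (5, 2 and 2), the potassium channel interactor gene SKIP had 9 (0, 2 and 7) and the BTB transcription factor gene bab1 had 9 (5, 0 and 4). With no other list's peak within 500 bp, ds had 6, SKIP 5 and bab1 4. The genes inv and mamo also had 9, and were placed after these by symbol order.

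**Figure D4:**
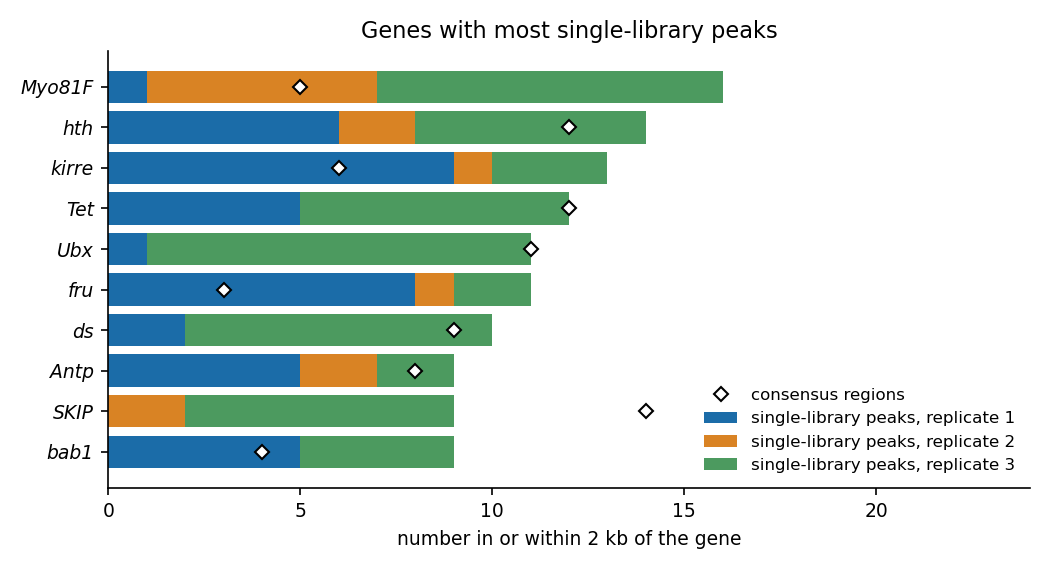
Number of single-library peaks in or within 2 kb of the 10 protein-coding genes with most of them, stacked by replicate, with the number of consensus regions at the same gene as diamonds. Ubx and ds draw mostly on replicate 3, and kirre and fru mostly on replicate 1.

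In hth, single-library peaks of different lists came close to each other without touching. The replicate 1 peak from 10586851 to 10587017 on 3R (fold 3.29) lay 51 bp from the replicate 2 peak from 10586626 to 10586799 (fold 2.995), and the replicate 3 peak from 10588651 to 10588856 (fold 2.98) lay 1633 bp further on. All 3 were more than 12 kb from the nearest consensus region, at 12527, 12302 and 14327 bp. In Tet, the replicate 1 peak on 3L from 2829867 to 2830061 reached a fold of 7.90, and the nearest replicate 3 peak, at 247 bp, had 2.93.

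Gene lists of pathways and cell types were then examined. Of the 164 protein-coding genes in the 13 lists of development and signalling, 99 (60.4%) had a single-library peak, beside 17.2% of all protein-coding genes. By library this was 67 genes in replicate 1 (40.9%, beside 8.32%), 23 in replicate 2 (14.0%, beside 3.65%) and 68 in replicate 3 (41.5%, beside 9.16%). Consensus regions lay at 86 of the 164, and 68 had both. Listed genes are long, so the shares are also given by length class. They were 17.1% of 41 listed genes up to 5 kb (all genes 9.85%), 62.7% of 59 from there to 20 kb (27.1%), 78.4% of 37 from 20 to 50 kb (62.4%) and 96.3% of 27 above 50 kb (81.8%).

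The 31 listed genes with a single-library peak and no consensus region have no stretch called in more than 1 library in or within 2 kb. A consensus region could still lie not far beyond. The gap from their peaks to the nearest one ran from 2613 bp at mib1 to 404678 bp at fz3. It was 3843 bp at wg and 5427 bp for the closest peak of dpp. Among the Hox genes, all 8 had a single-library peak, beside 17.2% of all protein-coding genes. The median length of this list was 30563 bp, and 62.4% of all genes from 20000 to 50000 bp had such a peak. Of the Hox genes, Abd-B, Dfd and lab had no consensus region. Dfd, which specifies head segments, had 4 peaks from all 3 libraries. On 3R these were the replicate 1 peak from 6796864 to 6797041 (fold 4.35), replicate 2 peaks from 6796478 to 6796626 (3.48) and from 6799102 to 6799266 (3.05), and a replicate 3 peak from 6791589 to 6791766 (3.72). The first of the replicate 2 peaks lay 237 bp from the replicate 1 peak. Abd-B, the Hox gene of the posterior abdomen, had 1 replicate 2 peak (fold 4.27) and replicate 3 peaks with folds of 4.12 and 6.03, all at least 90820 bp from a consensus region. The anterior gene lab had 1 replicate 1 peak (fold 5.203).

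Signalling ligands were represented by dpp, wg and Wnt6. The BMP ligand gene dpp had 3 replicate 1 peaks on 2L, from 2426910 to 2427098 (fold 6.19), from 2460933 to 2461116 (4.33) and from 2461462 to 2461626 (3.96), which all lay outside the gene. Its single replicate 3 peak, from 2446923 to 2447054 (4.03), lay inside, 13878 bp from the nearest replicate 1 peak. The Wingless ligand gene wg had 1 replicate 1 peak, from 7316302 to 7316458 on 2L (5.06), 115 bp from the gene end. Its neighbour Wnt6 had 2 in replicate 1 (4.90 and 2.997) and 1 in replicate 3 (4.40), with 13997 bp between the libraries. Replicate 2 had no single-library peak at these 3 ligand genes.

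Of the receptors, put and sax, which bind Dpp family ligands, had 1 peak each, in replicate 3 (fold 3.97) and replicate 1 (3.02). The Frizzled family receptor gene fz3 had a replicate 2 peak on X from 784046 to 784187 (5.76) and a replicate 3 peak from 769604 to 769753 (4.33), both near its ends and 14292 bp apart. Further down the pathways, the EGF receptor antagonist gene aos had 2 replicate 3 peaks (3.69 and 3.94), whose midpoints lay in CG33158, and the transmembrane inhibitor gene kek1 had 1 (2.93). The Notch ligand regulator gene mib1 had 1 replicate 1 peak (4.29) and nvy had 2 (6.44 and 5.203). The atypical myosin gene dachs, which acts below Fat, had 3 replicate 3 peaks (3.37, 2.93 and 4.83). The peak counted for mats, a Hippo pathway gene, lay in Nop56 (replicate 1, 3.47), and that for E(spl)m8-HLH, a Notch target, lay in the corepressor gene gro (replicate 3, 4.27).

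Among transcription factors of the wing and body wall, salr, which acts in the central wing blade, had 1 replicate 1 peak (fold 4.10) and 1 replicate 3 peak (3.97), 4063 bp apart. The rotund gene rn had 1 in replicate 1 (3.72) and 1 in replicate 3 (3.98), 21726 bp apart. The dorsal selector gene ap had 1 replicate 3 peak on 2R from 5726345 to 5726576 (5.78), and the vein gene kn had 2 in replicate 3 (3.92 and 4.09). The notum gene pnr had a replicate 1 peak on 3R from 16035785 to 16035937 (5.70) and a replicate 2 peak from 16032890 to 16033065 (4.54), 2719 bp apart. The T-box gene Doc2 had 1 in replicate 1 (3.48) and 1 in replicate 2 (3.06), and Doc1 had 1 in replicate 3 (3.45). The leg gene dac had 1 in replicate 3 (3.94). Hr3, a nuclear receptor of the ecdysone response, had peaks of all 3 libraries, with folds of 3.72 and 5.22 in replicate 1, 3.96 in replicate 2 and 5.09 in replicate 3. Eip93F, another ecdysone response gene, had 2 in replicate 1 (3.92 and 4.46). The neural factor gene pros had 2 in replicate 1 (4.71 and 4.17) and 2 in replicate 3 (4.18 and 2.46), and the proneural gene ato had 1 in replicate 3 (3.91). The collagen gene vkg had 1 in replicate 1 (3.13), as did the Polycomb group gene Su(z)12 (4.38). The GAGA factor gene Trl had 1 in replicate 3 (4.01), which lay in CG42507.

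Across the lists the shares ranged widely, beside 17.2% of all protein-coding genes, and so did the median gene length of a list, from 1093.5 bp for cuticle protein genes to 50703 bp for ecdysone response genes. Single-library peaks lay at 13 of 16 hinge, notum and leg genes, 8 of 10 EGF receptor pathway genes, 11 of 15 Dpp pathway genes, 8 of 11 ecdysone response genes and 10 of 14 wing selector and vein genes. They lay at 11 of 18 Wingless pathway genes, 8 of 14 Polycomb and GAGA factor genes, 8 of 15 Notch pathway genes and 5 of 13 genes of the Fat and Hippo pathway. The lowest shares among development lists were 3 of 8 proneural and sensory organ genes, 3 of 11 Hedgehog pathway genes and 3 of 11 matrix and matrix protease genes. The median gene lengths of these lists were short, at 1934, 4940 and 9334 bp. Single-library peaks lay at 9.85% of all genes up to 5 kb and at 27.1% of those from there to 20 kb. For comparison, they lay at 4 of 92 ribosomal protein genes, all in replicate 1, and at 12 of 70 cuticle protein genes (17.1%, about the share of all genes), 8 of which had one in replicate 3. Most genes of both lists are shorter than 5 kb, and of all genes up to 5 kb 9.85% had a single-library peak.

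Markers of other cell types that a disc preparation can hold were counted in the same way. The part of such cells in these peaks was not tested. Of the haemocyte genes, 4 of 6 had a single-library peak, beside 17.2% of all genes, and 0 had a consensus region. The blood cell factor gene srp had 1 in replicate 2 (fold 3.33), He and NimC1 shared 1 in replicate 2 (3.61) that lay inside NimB5, and Pxn had 1 in replicate 1 (3.47) and 1 in replicate 3 (3.05). These 4 peaks ranked at the 17.4, 29.03, 12.7 and 5.37 percentiles of fold in their lists, in the order named. Single-library peaks lay at 4 of 9 myoblast genes, 3 of 6 tracheal genes and 0 of 6 neuron and glia genes. The median gene lengths of these lists were 37131, 15488.5 and 10698.5 bp, and that of the haemocyte list was 9359.5 bp. Of all genes from 20000 to 50000 bp 62.4% had a single-library peak, and of those from 5000 to 20000 bp 27.1%. Beside genes of its length class, the share was lower for the myoblast and the neuron and glia lists. It was higher for the tracheal and haemocyte lists. These differences were not tested. The tracheal and vein gene vvl had the second strongest single-library peak of replicate 2, on 3L from 6789684 to 6789853 (fold 6.03), 390 bp from the gene.

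Heat shock genes were the other list with single-library peaks and no consensus region. Of the 12 genes 6 had a single-library peak, from replicates 2 and 3 alone, beside 17.2% of all genes. The median length of the list was 2277.5 bp, and 9.85% of all genes up to 5 kb had such a peak. At Hsp26 a replicate 2 peak on 3L from 9376560 to 9376765 (fold 3.10), which also lay within 2 kb of Hsp22, and a replicate 3 peak from 9377005 to 9377155 (3.67) were 239 bp apart. At Hsp70Ba a replicate 2 peak (4.48) and a replicate 3 peak (3.28) were 502 bp apart. Replicate 3 had 3 peaks in or within 2 kb of Hsp70Bbb (4.16, 3.51 and 4.12), 1 at Hsp70Ab (3.29) and 1 at Hsc70-4 (4.18). The Hsp70Bbb peak with a fold of 4.12 had its midpoint in Hsp70Bb. The Hsp70 genes are near-identical copies, so reads may be placed at the wrong copy and these positions are uncertain.

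**Figure D5:**
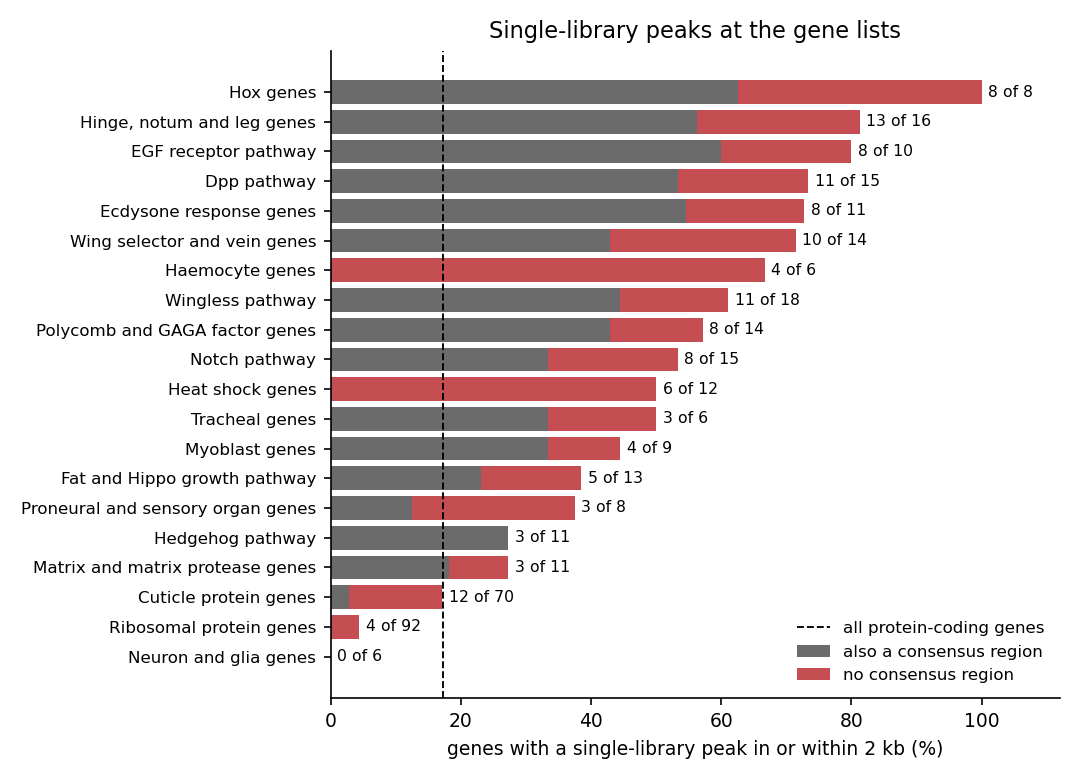
Share of the protein-coding genes of each preset list (percent) with a single-library peak in or within 2 kb, split by whether the gene also has a consensus region, with counts at the bar ends and the share over all protein-coding genes as a dashed line. Haemocyte and heat shock genes have single-library peaks at 4 of 6 and 6 of 12 genes and no consensus region at any.

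The 5 single-library peaks of highest fold in each library are described next. In replicate 1 the strongest lay on 3R from 10674434 to 10674673, with a fold of 11.9, 1007 bp from CG6465 and 322 bp from the nearest peak of another list. The next lay inside Eip63E, a cyclin-dependent kinase gene, on 3L from 3542752 to 3542960 (fold 11.4), 5440 bp from any other list. The other 3 of the first 5 were on X: inside the receptor phosphatase gene Ptp10D from 11622798 to 11623002 (9.99), 5292 bp from the pioneer factor gene zld from 19788747 to 19788933 (9.66), and inside stx from 10731502 to 10731782 (8.67). The Ptp10D peak had no peak of another list within 62630 bp, and ranked at the 98.6 percentile of fold in its own list.

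In replicate 2 the first 5 had folds between 5.76 and 6.12. The strongest lay on 3R from 7333247 to 7333438, 11727 bp from CG31496 and 742 bp from another list, followed by the vvl peak. Then came a peak on X from 19942999 to 19943249, 233 bp from CG45492 (5.86), one on 2L from 20514916 to 20515244, 15986 bp from CG44270 (5.82), and the fz3 peak. These 5 ranked between the 83.02 and 86.3 percentiles of fold in their list.

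In replicate 3 the strongest lay on 3L from 16208852 to 16209145, with a fold of 10.9, 4053 bp from CG13073 and 335 bp from a consensus region. The next was on 2R from 7493076 to 7493442, 547 bp from CG1620 (8.998). A peak at the end of the hexokinase gene Hex-A, on X from 9585594 to 9585771, had a fold of 8.43 and lay 869 bp from a consensus region. One on 3L from 6256627 to 6256803, 50 bp from the bestrophin gene Best2, had 8.07, and the fifth was the ds peak from 650835 to 651049 (7.49). Within 1 kb of a gene end lay 3 of these 5 peaks, 3 of the 5 of replicate 2 and 1 of the 5 of replicate 1, where the CG6465 peak was 1007 bp away.

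At 21 genes (0.151% of all) all 3 libraries had single-library peaks and no consensus region was present, so each library had a peak at the gene but at other bases. The first by mean rank of their best peaks was drn, where 3 of the 5 peaks on 3R lay close together: replicate 2 from 9347203 to 9347361 (fold 4.71), replicate 1 from 9347828 to 9347995 (3.05) and replicate 3 from 9348513 to 9348682 (6.05), separated by 466 and 517 bp. In the bZIP transcription factor gene Pdp1 the 3 lists again came close, on 3L from 7861466 to 7861591 in replicate 1 (4.66), 7862369 to 7862532 in replicate 2 (2.83) and 7863275 to 7863446 in replicate 3 (4.85), with gaps of 777 and 742 bp. In Ptp4E, a receptor phosphatase gene on X, the peaks from 4939490 to 4939628 in replicate 1 (3.92), 4940148 to 4940290 in replicate 3 (4.30) and 4942094 to 4942242 in replicate 2 (5.62) were 519 and 1803 bp apart.

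Other genes of this class had widely spaced peaks. In shep, an RNA-binding protein gene of 122124 bp, the 5 replicate 1 peaks and the replicate 2 peak (fold 5.52) lay at least 8836 bp apart between lists, and the nearest consensus region was at least 291167 bp away. The replicate 3 peak (3.06) lay 2308 bp from a replicate 1 peak (5.203). The LIM-homeobox gene Awh had 1 peak in replicate 1 (4.90), 2 in replicate 2 (3.27 and 3.58) and 1 in replicate 3 (4.003), and its nearest consensus region was 191302 bp away. The phosphodiesterase gene Pde1c, lilli, CG6051 and the chloride channel gene GluClalpha complete the first 10 together with Hr3. In Pde1c a replicate 2 peak (3.61) and a replicate 3 peak (4.72) were 400 bp apart.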

How the data were processed

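Peaks were called with MACS2 per the series design text. The submitters' processing notes also name Trimmomatic 0.36, BWA and the genome build BDGP6. MACS2 options, control and duplicate handling are not given in the sources used here. The deposited lists give, per library and peak, the authors' fold enrichment (a linear ratio), −log10 p-value and −log10 q-value, and a score that is the whole part of 10 times the deposited −log10 q-value. The lowest −log10 q-value was 2.004, and the fold was used to rank peaks inside their own list. The consensus list gives positions only; rebuilding it as stretches covered by at least 2 lists gave all 2027 regions analysed.

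Positions are written 1-based. Gene extents come from the NCBI RefSeq table of Drosophila melanogaster Release 6, which has no strand or transcripts. No genome sequence was used, so no sequences are shown and motifs were not searched. The histone stretch ran from 21416953 to 21541681 on 2L (111 genes). Shared means at least 1 base. Samples were grouped by title. Tools were pandas 2.3.3, scipy 1.17.1 and numpy 2.4.6 under Python 3.11.15; interval code was tested on simulated data. Tests were exact two-sided sign-flip permutation tests over 3 libraries, adjusted by Benjamini-Hochberg over 4. Depth per library is unknown, and Wilson intervals cover only counting error over peaks. Alternatives covered the overlap rule, peak strength, each library left out, the gene window and gene types. All 366 list symbols matched the table, 3 through another name.

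The genes named are the 5 single-library peaks of highest fold per library, the 10 genes with most of them, the first 10 of the genes with all 3 libraries and no consensus region, and listed genes without a consensus region. The members and lists were chosen with earlier results of these data known.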

Additional observations from a re-analysis of the deposited data

Results flagged for a closer look

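The rule leaves out Y, the unplaced scaffolds and the histone genes, but single-library peaks were called there too, outside the peaks that the comparisons describe, apart from the alternative above that keeps the histone genes. On Y and the unplaced scaffolds there were 10 in replicate 2, of which 4 lay on Y, and 35 in replicate 3, of which 26 lay on Y. Their median fold was 3.16 and 3.98. Replicate 1 had 2. Among the tandem histone genes 11 of the 120 peaks of replicate 3 were called in that library alone, with a median fold of 2.99.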

How the results depend on the processing

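The mean excess near gene ends and the mean deficit between genes kept their sign under each alternative run, and so did the mean difference deep inside genes. With all gene types counted, or with the histone genes kept, the excess near gene ends was not present in every library. The difference on X was -0.15 points without replicate 1, and from -0.15 to 5.73 points with each replicate left out in turn. The mean of the median gaps to a consensus region, 20943 bp, ranged from 24406 to 36389 bp likewise, the highest without replicate 3, where fewer consensus regions remain by construction. With each list first cut to its strongest 50% and the rule applied again, 1776 peaks were called in 1 library, at 1163 genes. By replicate these were 738, 233 and 805. Of the single-library peaks of the whole lists, 605, 115 and 470 lay above the median fold of their list. The 1776 therefore include peaks that are shared in the whole lists. Counting gene bodies alone left 1450 of the 2389 genes. Of 450 recounts at 50 named genes, 119 changed by over 1.5 times, 114 of them downward. The motif test was not run, because no sequence was used. The comparisons within fold quartiles and without X were added after seeing the data and changed no direction. No paired analysis was possible because the replicate numbers could pair only different groups, and only the haltere ChIP group had peak lists analysed here; the sign-flip tests compare peak classes within each library. Unknown depth limits every statement on a peak missing from a list.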

Other observations

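Single-library peaks lay close to long non-coding RNA genes less often than shared peaks did. The measure here is distance to the gene within 500 bp, not to a gene end within 1 kb. It is therefore not comparable with the protein-coding values above. Within 500 bp of such a gene lay 7.08% of the single-library peaks of replicate 1, 6.94% of replicate 2 and 9.30% of replicate 3, against 11.9, 12.1 and 12.1% of the shared peaks. The difference was -4.28 ± 1.28 percentage points (SD, n = 3), negative in 3 of 3 libraries (exact sign-flip permutation p = 0.25, the smallest possible), and was looked at after the values were seen.

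In replicate 3, 5 single-library peaks followed each other inside the extent of Myo81F at near-even steps, a run picked out after the values were seen. They began at 571128, 575357, 579897, 584092 and 588294 on 3R, with steps of 4229, 4540, 4195 and 4202 bp and folds from 3.69 to 4.30. The nearest peak of replicate 1 or 2 to any of them was 136408 bp away.

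The 100 kb windows with most single-library peaks are given for each library. Replicate 1 had 9 in a window of 2R holding lola and psq, beside 8 consensus regions, and replicate 3 had 11 in the window of 3R holding Ubx, beside 10. Replicate 2 had 5 in a window of 3L holding toe and eyg, beside 6.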
